A study of Mus musculus with 6 samples.

Results

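The genes described here encode carriers that move short-chain fatty acids and other monocarboxylates across membranes, the chaperone of those carriers, and the receptors that sense these acids outside the cell. The members are 8 of the 19938 genes measured: Slc16a1, Slc16a3, Slc16a7, Bsg, Slc5a8, Slc5a12, Ffar2 and Ffar3. They were chosen by name, with earlier results of these data known. Each had 1 probeset that carried its symbol alone, which stood for the gene.

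The study used E14, a mouse embryonic stem cell line grown with leukemia inhibitory factor and serum on primary embryonic fibroblasts that mitomycin C had arrested. Cells received 0.5 mM valproic acid (VPA) for 16 h (2 samples), 0.2 mM sodium butyrate (NaBu) for 16 h (2 samples), or neither compound (2 untreated controls), and all 3 groups shared the line, the feeder layer and the medium. Total RNA, which includes that of the feeder cells, was hybridised to 1 Affymetrix array per sample and is given as log2 intensity. Both compounds are short-chain fatty acids that inhibit histone deacetylases, VPA with a branched and butyrate with a straight chain, and the doses differed. Signal of the 9 measured stem cell genes, Pou5f1 and Nanog among them, lay above that of the median gene on each of the 6 arrays, a position that also depends on their probes. In bulk RNA, fewer cells of a type and less RNA per cell cannot be told apart.

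Short-chain fatty acids such as butyrate enter cells through proton-coupled monocarboxylate transporters of the Slc16 family and, in the gut and kidney, through sodium-coupled carriers of the Slc5 family. The proton-coupled carriers also move lactate and pyruvate, and they reach the plasma membrane only with a single-pass chaperone, basigin or its relative embigin. Ffar2 and Ffar3 are G protein-coupled receptors for acetate, propionate and butyrate, known mainly from gut endocrine cells, immune cells and sympathetic neurons.

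The promoters of 4 members are shown because they span the range of CpG content among the 5 members with a promoter entry. Each is the 250 bases before the transcription start in RefSeq (GRCm38.p6), 5′ to 3′ on the gene's strand. Capitals mark ACGTG on either strand, the core that an E-box (CACGTG, the site of the Myc family) shares with sites of the hypoxia-inducible factors.
Slc16a1 (chr3:104638414-104638663, + strand): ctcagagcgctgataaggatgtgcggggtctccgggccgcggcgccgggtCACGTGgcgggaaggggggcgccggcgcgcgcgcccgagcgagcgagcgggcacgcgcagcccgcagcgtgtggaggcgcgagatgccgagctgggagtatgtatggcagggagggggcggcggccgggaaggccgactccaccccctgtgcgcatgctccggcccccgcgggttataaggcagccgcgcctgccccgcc
Slc16a3 (chr11:120948817-120949066, + strand): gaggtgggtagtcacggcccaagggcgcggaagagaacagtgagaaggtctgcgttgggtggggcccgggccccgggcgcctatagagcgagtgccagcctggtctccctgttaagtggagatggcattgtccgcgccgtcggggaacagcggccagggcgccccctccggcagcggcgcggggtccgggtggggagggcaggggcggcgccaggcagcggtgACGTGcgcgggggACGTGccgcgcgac
Slc5a8 (chr10:88885742-88885991, + strand): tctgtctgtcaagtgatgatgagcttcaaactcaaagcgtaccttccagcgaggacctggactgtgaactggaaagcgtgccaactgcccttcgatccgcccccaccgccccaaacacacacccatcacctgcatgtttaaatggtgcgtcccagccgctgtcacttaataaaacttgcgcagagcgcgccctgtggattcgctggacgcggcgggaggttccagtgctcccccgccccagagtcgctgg
Ffar3 (chr7:30856179-30856428, - strand): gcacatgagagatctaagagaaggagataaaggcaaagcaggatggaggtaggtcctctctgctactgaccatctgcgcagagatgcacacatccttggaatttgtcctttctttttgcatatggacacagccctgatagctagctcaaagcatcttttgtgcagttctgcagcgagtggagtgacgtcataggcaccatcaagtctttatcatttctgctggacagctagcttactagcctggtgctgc

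The Slc16a1 window held 37 CG dinucleotides and that of Slc16a3 held 29, against 17 for Slc5a8 and 3 for Ffar3. The median over all 32851 promoter windows of that length was 6. ACGTG was found at 2 positions before Slc16a1, where both overlap as 1 CACGTG, and at 2 separate positions before Slc16a3, but not before Slc5a8 or Ffar3. Of all windows, 16.6% held ACGTG on either strand and 6.02% held CACGTG. The 4 starts of Ffar2 in that table had 3 or 9 CG dinucleotides, and 1 of them held CACGTG. Entries were found for 5 of the 8 members, and Slc16a7, Slc5a12 and Bsg were not among them. A match describes the letters of the window and does not show binding.

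VPA was set against untreated cells to read the effect of the inhibitor under culture conditions that maintain stem cells. Slc16a7 (probeset 10372988), which encodes MCT2, a carrier with high affinity for pyruvate and lactate known from neurons and testis, stood higher with VPA. Its log2 expression was 4.24 and 4.47 in VPA-treated cells, against 3.30 and 3.70 in untreated cells. Both VPA arrays lay above both controls, and the gap was present within each replicate number, at 0.94 for replicate 1 and 0.77 for replicate 2. The mean log2 difference was 0.85 (SE 0.19, 95% interval 0.39 to 1.31), a 1.81-fold ratio with an interval of 1.31 to 2.48.

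This difference did not pass the test across all genes. limma gave Slc16a7 an unadjusted p of 0.00366 and an adjusted p of 0.964 over the 19938 genes, of which 0% passed. With the replicate number as a block the interval narrowed to 0.60 to 1.11 and the adjusted p was 0.201. No gene reached a smaller adjusted p in that fit, where 0% passed. Other genes shared this value, among them Lipa, Galnt12 and Egr1, which were picked for profiles close to that of Slc16a7. The adjustment can give 1 value to genes whose unadjusted p differ. In this fit limma's unadjusted p was 5.15e-05 for Slc16a7 and 0.00169 for Galnt12. Slc16a7 ranked 34th of 19938 by the size of its moderated statistic, and 0.301% of genes had a mean difference at least as large in either direction. A gap of at least 0.5 in both replicate numbers was shared by 77 genes, 0.386% of those tested. Leaving out single arrays gave differences between 0.65 (without control replicate 1) and 1.05 (without control replicate 2).

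The signal of Slc16a7 was dim. Its 3.50 ± 0.28 (SD, n = 2) in untreated cells lay below the lower quartile of genes on the control arrays, 3.90 and 3.91, and its 4.35 ± 0.17 (SD, n = 2) with VPA lay above the quartiles of the VPA arrays, 3.93 and 3.95. A position among all genes depends also on a probeset's probes, so it is a description and not a rank of expression. How far the untreated level stood above background was not tested.

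**Figure D1:**
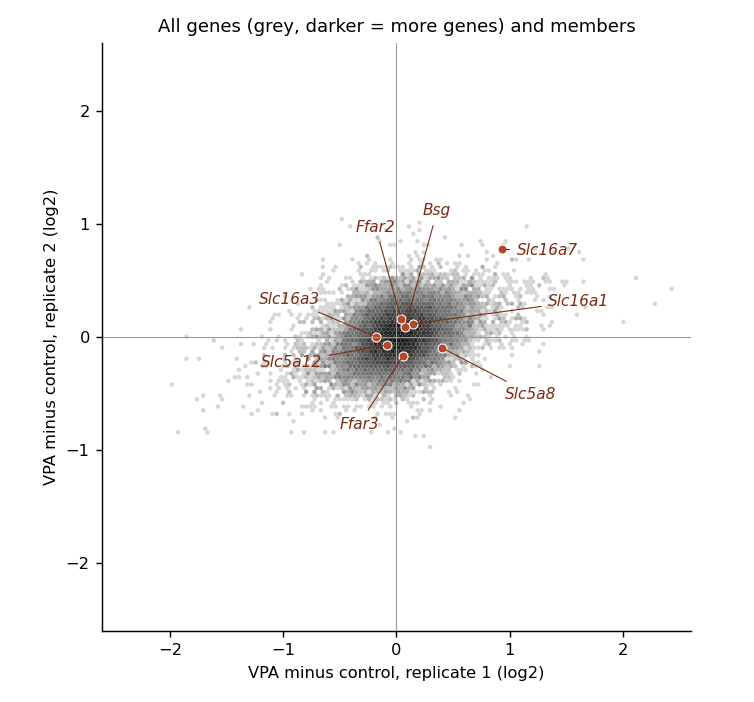
Log2 difference between VPA and control within replicate 1 (x axis) and within replicate 2 (y axis) for all 19938 genes (grey hexagons, darker where more genes fall, log colour scale) and the 8 members (red points). Slc16a7 stands at 0.94 and 0.77, outside the dense cloud, while Slc16a1, Slc16a3, Bsg, Slc5a8, Slc5a12, Ffar2 and Ffar3 lie nearer to 0.

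Slc16a1 and Slc16a3 stood close to the controls. Slc16a1 encodes MCT1, the widespread carrier of lactate, pyruvate, ketone bodies and butyrate. It had values of 10.27 and 10.23 with VPA, against 10.13 and 10.11 in untreated cells. The 2 groups did not overlap, but the difference of 0.13 had a 95% interval of -0.13 to 0.39 (limma adjusted p 0.969). Slc16a3 encodes MCT4, a carrier of low affinity that exports lactate from glycolytic cells. Its values were 9.48 and 9.66 with VPA, against 9.67 and 9.66 in untreated cells, so that only VPA replicate 1 stood apart (difference -0.09, 95% interval -0.39 to 0.20).

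Bsg (probeset 10364468) encodes basigin (CD147), the chaperone that MCT1 and MCT4 need. It had 9.74 and 9.99 with VPA, against 9.67 and 9.91 without. The arrays of both groups interleaved, with a difference of 0.08 (95% interval -0.47 to 0.62).

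Slc5a8 and Slc5a12 encode the sodium-coupled carriers SMCT1 and SMCT2, of high and low affinity. Slc5a8 had 4.32 and 4.07 with VPA, against 3.92 and 4.17 in untreated cells, and its difference was 0.40 within replicate 1 and -0.10 within replicate 2. Slc5a12 had 3.19 and 3.22 with VPA, against 3.27 and 3.29 in untreated cells. Its groups did not overlap, and the difference was -0.08 (95% interval -0.35 to 0.20). Among the receptors, Ffar2 (GPR43) had 3.51 on both VPA arrays, against 3.47 and 3.35 in untreated cells. Ffar3 (GPR41) had 3.55 and 3.46 with VPA, against 3.50 and 3.64. The interval of the difference was -0.26 to 0.46 for Ffar2 and -0.36 to 0.24 for Ffar3.

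Of the 8 members, 0 passed limma's adjusted threshold with VPA and 1 (Slc16a7) had an unadjusted p under 0.05, against 4.92% of all genes. The arrays of the groups did not overlap for 3 higher members (Slc16a7, Slc16a1 and Ffar2) and 1 lower member (Slc5a12), against 19.1% and 15.6% of all genes. Within both replicate numbers 4 members stood higher and 1 lower, against 32% and 28% of all genes. With the block 1 member (Slc16a7) had an unadjusted p under 0.05, against 13.2%. The median difference of the members was 0.09, and that of all genes 0.01. Beside these values, the 14 measured feeder fibroblast markers differed by a mean of 0.03 with VPA (-0.12 in replicate 1 and 0.18 in replicate 2), and all 9 stem cell markers stood lower, by a mean of -0.34. The summed linear intensity of the feeder markers was 3427.5 and 5989.3 with VPA, against 3857.1 and 5287.3 in untreated cells. RMA gives no zeros, so no marker could be read as absent. The part of either in the difference of Slc16a7 was not tested.

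**Figure D2:**
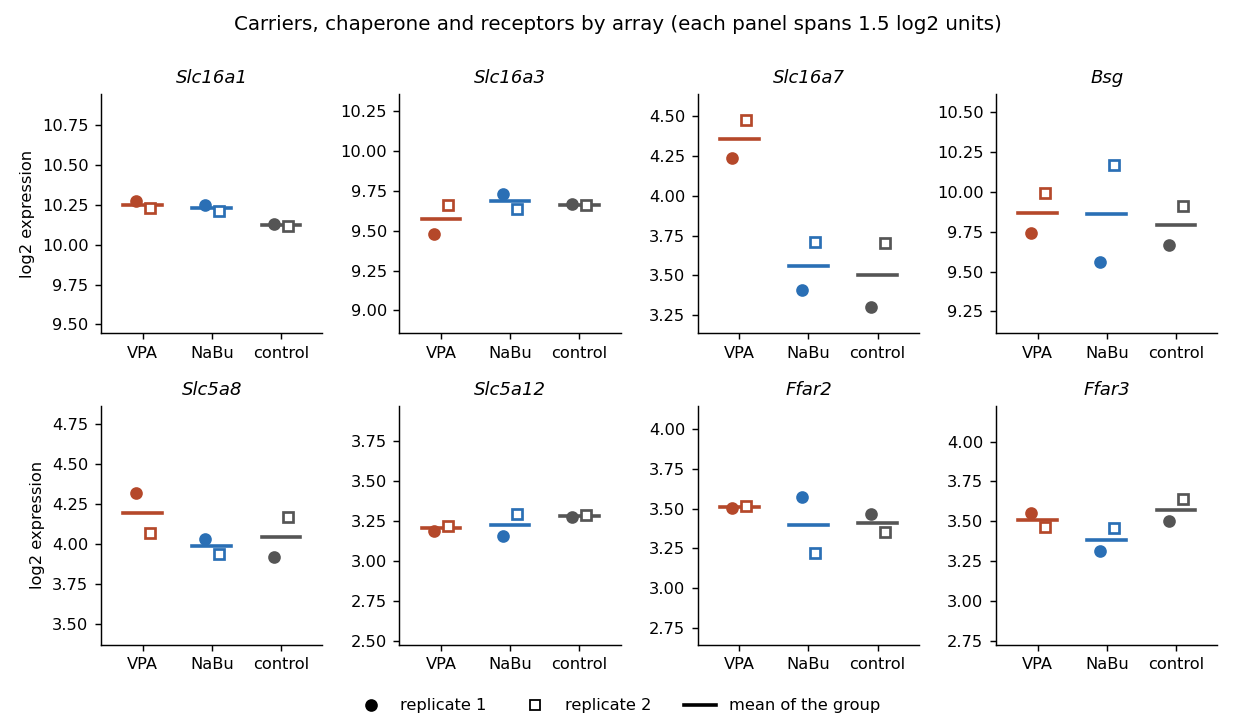
Log2 expression on each array (y axis, 1.5 log2 units in every panel) for cells with VPA, with NaBu and untreated (x axis); filled circles are replicate 1, open squares replicate 2 and lines the group means. The VPA arrays of Slc16a7, at 4.24 and 4.47, stand above all other arrays of that gene, and Bsg is higher in replicate 2 of each condition.

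NaBu was set against the same untreated samples to put the same question to the other inhibitor. No member stood far from the controls. Slc16a7 had 3.41 and 3.71 with NaBu, against 3.30 and 3.70 in untreated cells, and the arrays interleaved. Its difference was 0.06 (95% interval -0.40 to 0.52, limma adjusted p 1), with 0.11 within replicate 1 and 0.01 within replicate 2. The sign turned when control replicate 1 (-0.14) or NaBu replicate 2 (-0.09) was left out.

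Slc16a1 was again a little above the controls, at 10.25 and 10.21 with NaBu, against 10.13 and 10.11 in untreated cells. The difference was 0.11 (95% interval -0.15 to 0.37), with 0.12 and 0.10 within replicates 1 and 2. Its values with VPA and with NaBu were each compared with the same 2 controls. Both compounds' arrays lay above these controls, whose own gap of 0.01 was smaller than the model's SE of 0.11 for either difference. The share of all genes with both compounds' arrays above the controls was not counted.

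Ffar3 stood lower, at 3.31 and 3.46 with NaBu, against 3.50 and 3.64 in untreated cells. The difference of -0.19 (95% interval -0.49 to 0.11) was -0.19 in replicate 1 and -0.18 in replicate 2, in the dim range of the array. Ffar2 had 3.57 and 3.22 with NaBu, against 3.47 and 3.35, with opposite signs in the 2 replicates. Slc16a3 had 9.73 and 9.64, against 9.67 and 9.66 without NaBu. For Slc5a8 the values were 4.03 and 3.94 with NaBu, against 3.92 and 4.17, and for Slc5a12 they were 3.16 and 3.29, against 3.27 and 3.29. Bsg had 9.56 and 10.17 with NaBu, the lowest and the highest of its 6 arrays, against 9.67 and 9.91 in untreated cells.

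With NaBu, 0 of the 8 members passed the adjusted threshold, as did 0% of all genes, and 0 had an unadjusted p under 0.05, against 1.56% of all genes. Arrays did not overlap for 1 higher member (Slc16a1) and 1 lower member (Ffar3), against 12.7% and 11.2% of all genes. The median difference was 0.00 for the members and 0.01 for all genes. Within both replicate numbers 2 members stood higher and 1 lower, against 29.1% and 23.1% of all genes, and 0 were at least 0.5 higher in both, against 0.0552%. With the replicate block, limma called 0% of genes for NaBu, and 0 members had an unadjusted p under 0.05, against 4.59% of genes. The mean difference of the 14 feeder markers under NaBu was 0.19, with 13 of them above 0, and that of the 9 stem cell markers was -0.08, with 8 below 0. Summed feeder intensity was 3899.7 and 6556.5 with NaBu, against 3857.1 and 5287.3 in untreated cells, and its part in the members' values was not tested.

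**Figure D3:**
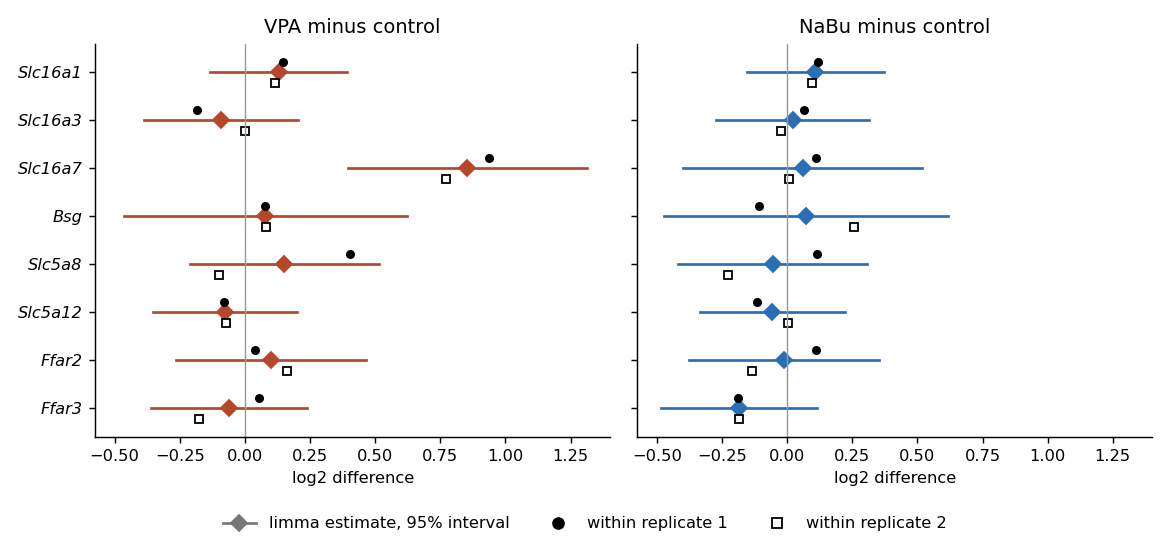
Log2 difference of VPA from control (left) and of NaBu from control (right) for the 8 members; diamonds with lines are limma estimates with 95% intervals, filled circles the differences within replicate 1 and open squares those within replicate 2. Only the VPA interval of Slc16a7, 0.39 to 1.31, excludes 0.

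VPA and NaBu were given at 0.5 and 0.2 mM, so that a difference between them is one between these treatments and not between the compounds at a matched dose. Slc16a7 was higher with VPA by 0.79 on the log2 scale (95% interval 0.34 to 1.25, limma adjusted p 0.998), with 0.82 within replicate 1 and 0.76 within replicate 2. Of all genes 0% passed, and 0.11% were at least 0.5 higher in both replicates. With the replicate block the interval was 0.54 to 1.05 and the adjusted p 0.362, with 0% of genes called. For Slc16a1 the interval of this difference was -0.24 to 0.28. Slc5a8 was 0.21 higher with VPA (95% interval -0.15 to 0.57) and did not overlap between the treatments. In all, 3 members did not overlap and were higher with VPA (Slc16a7, Slc5a8 and Ffar3) and 0 were lower, against 16% and 14.6% of all genes. An unadjusted p under 0.05 was reached by 1 member (Slc16a7), against 3.63% of genes, and by the same member with the block, against 10.8%. Within both replicate numbers 4 members stood higher with VPA and 0 lower, against 27.5% and 28.6%. Stem cell markers had a mean difference of -0.26 between VPA and NaBu, with 8 of 9 below 0 within both replicate numbers. Feeder markers had one of -0.16, with 11 of 14 below 0. The part of either in these values was not tested. The order of the group means for Slc16a7 was VPA, NaBu, control, in which NaBu and control did not differ beyond their spread.

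Replicate numbers were set against each other because the labels number the samples alike in each condition. Bsg had 9.99, 10.17 and 9.91 in replicate 2 of VPA, NaBu and control, against 9.74, 9.56 and 9.67 in replicate 1 of the same conditions. All 3 arrays of replicate 2 lay above all 3 of replicate 1, as in 13.5% of all genes in that direction. The log2 difference was 0.37 (95% interval 0.12 to 0.61, limma adjusted p 0.0615 with the condition in the model). It passed the threshold after quantile normalization (0.42, limma adjusted p 0.0381), where 2325 genes passed. It also passed among genes at or above the median gene (limma adjusted p 0.0321), where 2644 of these genes alone passed. With an intensity trend (limma adjusted p 0.0187) it passed beside 2980 genes in all. It did not pass after median centring (limma adjusted p 0.0742, 2620 genes passing) or with probeset means (limma adjusted p 0.0612, 2306 genes passing). Calls were thus common in every one of these runs. Leaving out a VPA, NaBu or control array gave adjusted p-values of 0.0557, 0.294 and 0.102.

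Slc16a7 was higher in replicate 2 of each condition as well, by 0.24 with VPA, 0.30 with NaBu and 0.40 in untreated cells. The difference of 0.31 had a 95% interval of 0.11 to 0.52 (limma adjusted p 0.061), smaller than its gap between VPA and control. For Slc16a1 and Slc16a3 the replicate difference was -0.03 (95% interval -0.23 to 0.17) and 0.03 (95% interval -0.19 to 0.25). Of all genes, 11.6% passed between the replicate numbers, 2313 in all, against 0 of the 8 members. An unadjusted p under 0.05 was reached by 2 members (Slc16a7 and Bsg), against 26.5% of genes. In all 3 conditions 3 members stood higher in replicate 2 (Slc16a7, Bsg and Slc5a12) and 1 lower (Slc16a1), against 23.2% and 23.5% of genes. The number of genes past the threshold was 716 without either NaBu array and 1370 without either control array.

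Feeder markers followed the same split. Their mean log2 level was 7.48, 7.57 and 7.30 in replicate 2 of VPA, NaBu and control, against 6.71, 6.94 and 6.82 in replicate 1. Of the 14 measured markers 13 were higher in replicate 2 and 7 passed the threshold, with Col1a1, a fibrillar collagen chosen after its value was seen, at 1.098 (limma adjusted p 0.00145). Lum, another of these markers, ran from 2.93 to 3.49 over the 6 arrays. Among the genes of lactate, pyruvate and acid handling 3 of 9 measured passed, and these 3 were higher in replicate 2. They were named after their values were seen. Of the 9, 7 stood above 0, Ldha at 0.05 among them. The 2 below 0 were Ldhc at -0.38 (95% interval -0.64 to -0.12, limma adjusted p 0.0708) and Mpc1 at -0.08. Car9, a carbonic anhydrase of the cell surface known as a hypoxia-induced gene, was higher in replicate 2 by 2.33 (95% interval 1.92 to 2.74, limma adjusted p 0.000433). Car12 was higher by 0.87 (limma adjusted p 0.00407), and Ldhb, the lactate dehydrogenase subunit H, by 0.50 (limma adjusted p 0.0116). Of the other lists, Slc16a9 (-0.56, limma adjusted p 0.0136) passed among 10 Slc16 relatives and Acss3 (0.46, limma adjusted p 0.0209) among 8 acyl-CoA synthetases, with 0 of 11 receptors and anion carriers. Slc16a3, which is also known as a hypoxia-induced gene from human cells, stood at 0.18, -0.09 and -0.00 between replicates 2 and 1 of VPA, NaBu and control. What the replicate numbers stand for is not given in the labels. The part of feeder RNA in the values of Bsg was not tested, nor was any part of hypoxia in the differences between replicate numbers.

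**Figure D4:**
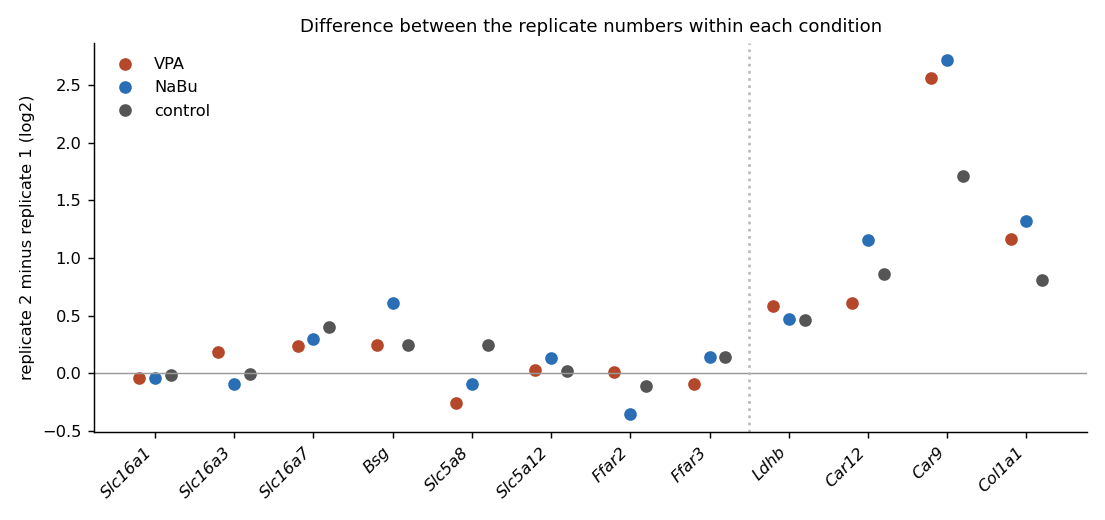
Log2 difference of replicate 2 from replicate 1 within VPA, NaBu and control (1 point each) for the 8 members, left of the dotted line, and for Ldhb, Car12, Car9 and Col1a1 on its right. Bsg and Slc16a7 lie above 0 in all 3 conditions, at up to 0.61 and 0.40, and the values of Car9 lie around its mean of 2.33.

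Related genes were read from 4 lists of written names. In each list the gene with the largest absolute moderated statistic for each compound was named. A wide gap of such a gene in that comparison therefore follows in part from the choice. Of all genes, 19.1% had both VPA arrays above both controls, and 12.7% had both NaBu arrays above them. Of the other Slc16 family members 10 were analysed here, and limma called 0 of them in either direction with VPA or NaBu. With VPA 6 stood above 0 and the median was 0.02, beside 0.01 for all genes, a value whose sign turned after median centring (-0.0016) and without VPA replicate 2 (-0.027) or control replicate 2 (-0.063). Slc16a10, a carrier of aromatic amino acids, had 6.39 and 5.94 with VPA, against 5.25 and 5.55 in untreated cells. Both VPA arrays lay above both controls, by 1.14 in replicate 1 and 0.39 in replicate 2 (difference 0.76, 95% interval 0.30 to 1.22, limma adjusted p 0.964). With NaBu 3 of the 10 stood above 0, and the median was -0.04. That median was 0.045 when NaBu replicate 2 was left out and 0.0035 when control replicate 1 was. Slc16a10 had 5.58 and 5.72 with NaBu, both above the controls, a difference of 0.25 (95% interval -0.21 to 0.71). Slc16a13, a carrier of the same family, stood at 0.22 with NaBu (95% interval -0.16 to 0.60), and at 0.050 without control replicate 1.

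Chaperone relatives and genes of lactate and pyruvate handling were measured for 9 of 10 written names (not Mpc2), with 0 called in either treatment. Their median was 0.12 with VPA and 0.04 with NaBu, and neither sign was stable. Without control replicate 1 the medians were -0.15 with VPA and -0.17 with NaBu, without VPA replicate 2 that of VPA was -0.030, and without NaBu replicate 2 that of NaBu was -0.10. Nptn, neuroplastin, a relative of basigin that also serves as a partner of membrane transporters, had 9.18 and 9.16 with VPA, against 8.86 and 8.87 in untreated cells. The groups did not overlap, and the difference was 0.30 (95% interval 0.04 to 0.56, limma adjusted p 0.964), with 0.32 and 0.29 within replicates 1 and 2. Mpc1, a subunit of the mitochondrial pyruvate carrier, stood at -0.16 with NaBu (95% interval -0.45 to 0.14). Embigin (Emb), named after its value was seen, is known as the partner of MCT2 in rat tissue. It had 9.57 and 9.59 with VPA, against 9.43 and 9.78 in untreated cells, a difference of -0.02.

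Other receptors of fatty and hydroxycarboxylic acids and carriers of organic anions were measured for 11 of 12 written names (not Olfr78), with 0 called. Their median was 0.05 with VPA and -0.06 with NaBu. Ffar1, a receptor of longer fatty acids, stood at -0.13 with VPA (95% interval -0.44 to 0.18). Slc22a8, an anion carrier of the kidney, had 3.68 and 3.64 with NaBu, against 4.001 and 3.82 in untreated cells, a difference of -0.25 (95% interval -0.54 to 0.04).

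Acyl-CoA synthetases, which activate short- and medium-chain acids inside the cell, were all measured (8 of 8), and 0 were called. The median was 0.06 with VPA and -0.03 with NaBu. Only Acss1 and Acss2 of this list lay at or above the median gene, and the median of this pair was 0.44 with VPA and 0.091 with NaBu. Acss1 itself stood at 0.19 with VPA and -0.11 with NaBu. Without NaBu replicate 1 the NaBu median of the whole list was 0.028. Acss2, which makes acetyl-CoA from acetate in the cytosol and nucleus, had 8.19 and 7.91 with VPA, against 7.11 and 7.61 in untreated cells. The groups did not overlap, with 1.08 in replicate 1 and 0.30 in replicate 2 (difference 0.69, 95% interval 0.08 to 1.30, limma adjusted p 0.964). With NaBu Acss2 had 7.37 and 7.94, a difference of 0.29 (95% interval -0.32 to 0.91). Leaving out NaBu replicate 2 gave 0.010 for this difference, and leaving out NaBu replicate 1 gave 0.58.

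**Figure D5:**
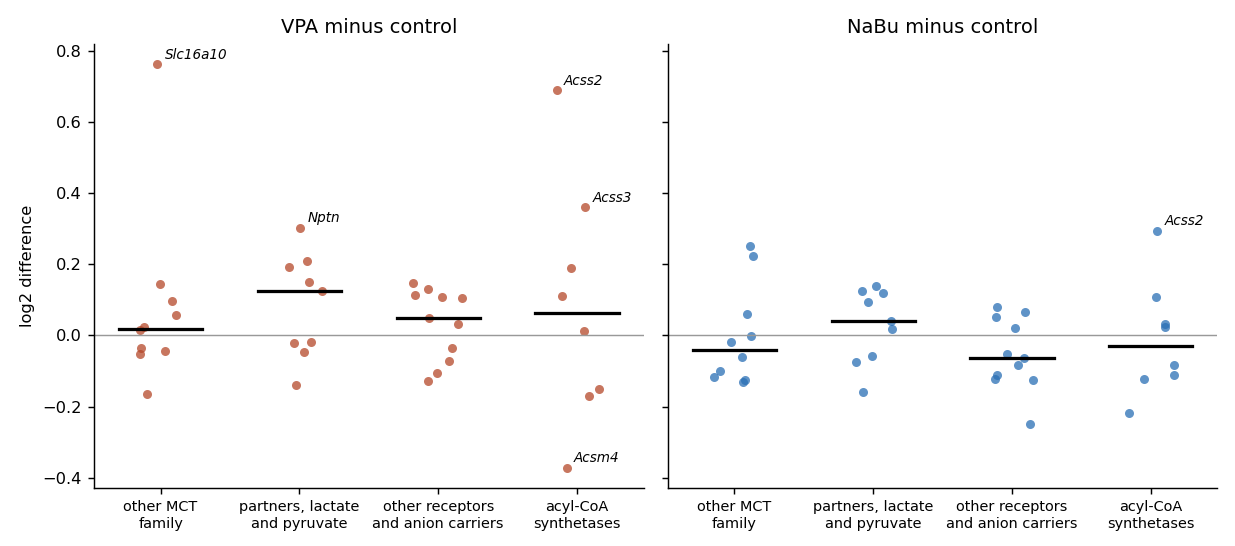
Log2 differences of VPA from control (left) and NaBu from control (right) for the measured genes of the 4 related lists (points, spread sideways for legibility), with the list median as a black line and labels on the points farthest from 0 over the 4 lists. With VPA, Slc16a10 at 0.76 and Acss2 at 0.69 lie above the rest of their lists; list medians run from 0.02 to 0.12 with VPA and from -0.06 to 0.04 with NaBu.

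For the 2 members whose SD over the 6 arrays was at least 0.2, the 3 genes with the smallest root mean square distance between centred log2 profiles over 6 arrays were read among 17088 candidates. For Slc16a7 these were the lysosomal acid lipase Lipa (distance 0.12), the glycosyltransferase Galnt12 (0.13) and the immediate early gene Egr1 (0.14). Lipa had 8.26 and 8.42 with VPA, against 7.54 and 7.94 in untreated cells. Their differences between VPA and control were 0.61 for Lipa, 0.69 for Galnt12 and 0.87 for Egr1 (limma adjusted p 0.964 for each). For Bsg the nearest were Smcr8 (0.033), Poc1b (0.038) and Tnk2 (0.038), which stood higher in replicate 2 by 0.39, 0.36 and 0.32. All these genes were picked for closeness to a member's profile, so differences like that member's follow from the choice.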

How the data were processed

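Per the submitters' processing notes, the authors made the deposited log2 expression values per probeset with RMA in Affymetrix Expression Console 1.1; the sources used here give neither RMA settings nor a genome build. Of 35556 probesets, 21789 carried 1 gene symbol in the platform annotation, 1621 several and 12146 were not listed. The probeset with the highest mean stood for a gene, which gave 19938 genes. Array medians lay between 5.01 and 5.09, and the number of arrays limits the precision.

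The model was fitted across all genes by limma 3.58.1 under R 4.3.3 (lmFit, eBayes without trend, 3 residual degrees of freedom, Benjamini-Hochberg over all genes, threshold 0.05). The replicate number was added as a block, or tested with the condition in the model, with 2 residual degrees of freedom. Its pairing was read from the values. Deviations of same-numbered arrays from their group means correlated across genes at 0.558 (VPA and control), 0.693 (NaBu and control) and 0.567 (VPA and NaBu). With 2 arrays a group these deviations mirror each other, so renumbering a group would only turn the sign of its correlations. The correlations alone therefore do not establish that same-numbered samples were paired. The labels do not say that replicates were separate cultures, so p-values measure the spread between samples. No permutation test was run, because with 2 arrays a group an exact one cannot go below a p of 0.333.

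Named genes were the members, the gene with the largest moderated statistic of each list for each compound, and the nearest profiles. Members and lists were chosen with earlier results of these data known. The fits were tested on simulated data with known changes between VPA and control. Of 100 genes changed by 1 on the log2 scale, the main fit recovered 35 and the block fit 48. Of 100 changed by 2, they recovered 88 and 89. False calls were 0 in the main fit and 2 with the block. A gene that did not pass may therefore still have changed. Alternatives were the replicate block, median centring, quantile normalization, a level filter, probeset means, an intensity trend and leaving out each array.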

Additional observations from a re-analysis of the deposited data

How the results depend on the processing

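No compound comparison called a gene under any alternative run (0 with the replicate block too), and at an unadjusted p under 0.05 limma counted 981 genes for VPA, 311 for NaBu and 724 between them without the block, and 2636, 916 and 2150 with it. Of the 24 differences of members in these comparisons, 12 kept their sign under every alternative run, among them Slc16a7 with VPA, and the lowest adjusted p was 0.201, with the replicate block. Median centring turned Slc16a1 (-0.011) and Bsg (-0.027) between VPA and NaBu and Slc16a3 (-0.012) between replicate numbers, and quantile normalization turned Slc16a1 (0.019) between replicate numbers. Leaving out single arrays without the block gave, for VPA against control, -0.046 to 0.20 for Bsg and -0.13 to 0.0093 for Ffar3. For NaBu against control it gave -0.23 to 0.38 for Bsg, -0.19 to 0.16 for Ffar2, -0.024 to 0.066 for Slc16a3, -0.14 to 0.26 for Slc16a7, -0.12 to 0.011 for Slc5a12 and -0.18 to 0.069 for Slc5a8. Between VPA and NaBu it gave -0.30 to 0.31 for Bsg, -0.065 to 0.29 for Ffar2, -0.000995 to 0.044 for Slc16a1 and -0.088 to 0.047 for Slc5a12. Between replicate numbers it gave -0.047 to 0.089 for Slc16a3, -0.17 to 0.077 for Slc5a8 and 716 to 2434 called genes. Of the list medians under alternatives, 73 moved by less than the spread between replicates and 23 by more. The 73 include runs that could not move a median. Neither the block nor the intensity trend changes an estimate, and leaving out an array of the other compound changes none. The cause of each turn was not tested. Dim probesets (Slc16a7, Slc5a8, Slc5a12, Ffar2, Ffar3) lie below the median gene, so the filter at that level gave no value for them. No member or other named gene changed its call with the block. That follows from 0 genes being called in either fit of the compound comparisons. The comparison of replicate numbers has no fit without the block.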
